A study of Mus musculus with 2 samples.

Results

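The 10 genes described here encode factors that keep or mark the pluripotent state of the early embryo: *Pou5f1*, *Nanog*, *Sox2*, *Sox3*, *Sall4*, *Utf1*, *Pou3f1*, *Otx2*, *Foxd3* and *Lin28a*. They were taken by symbol from the 32285 genes counted by droplet single-cell RNA-seq in mouse embryos at embryonic day (E) 7, the stage of gastrulation. Control embryos, labelled WT, carried the Sox2-Cre transgene and 1 floxed *Yap1* allele (Sox2cre:Yapflox/+). The section on mice in the methods also describes floxed littermates without Cre as controls. *Yap1* cKO embryos carried the same transgene and 2 floxed alleles (Sox2cre:Yapflox/flox). *Yap1* encodes a coactivator of the Hippo pathway that binds DNA through TEAD proteins. Sox2-Cre acts in the epiblast and its derivatives and spares the visceral endoderm and the extraembryonic ectoderm. Whole embryos of a genotype were pooled before dissociation and gave 1 library, so that the values below carry no error between embryos, and no comparison between the genotypes could be tested. The labels give both pools as female, whereas 51.6% of control and 15.6% of cKO cells had at least 2 UMIs of Y-linked genes and 0 of *Xist* (Y-positive), and 42.2% and 77.6% the reverse (*Xist*-positive). Y-positive and *Xist*-positive cells came from different embryos of a pool, so each genotype difference is also given within these classes where it turns on them. The paper gives only a few embryos per pool, so a class can stand for a single embryo.

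Pluripotency is held by a circuit in which POU5F1 (OCT4), SOX2 and NANOG bind each other's genes and many shared targets. In the mouse, NANOG is high in the blastocyst, falls in the early post-implantation epiblast and returns in its posterior part, while SOX2 retreats to the anterior, prospective neural part as the primitive streak forms. OTX2 and POU3F1 mark the passage from the naive to the formative and primed states. Several of these factors also act outside the epiblast, SOX2 in the trophoblast and OTX2 in the anterior visceral endoderm (AVE).

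The promoter of *Nanog* (mm10, chr6:122707489-122714633, plus strand) shows the circuit in sequence, since it holds a POU motif and a SOX motif side by side. The stretch below is chr6:122707354-122707473 of GRCm38, plus strand, from the RefSeq table of promoters. The capitals mark the composite motif, which on the opposite strand reads as the SOX core CATTGT, 1 base and the POU motif ATGCAAA.

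Nanog: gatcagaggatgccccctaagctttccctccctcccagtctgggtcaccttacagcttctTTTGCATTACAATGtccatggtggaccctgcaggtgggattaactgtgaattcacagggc

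The motif lies 75 to 62 bases before the first of the start sites listed for *Nanog*. Each of 32851 promoter windows ran from 250 bases before to 50 bases after a start site. Of these windows 2 held the composite on either strand (0.00609%), and both were windows of *Nanog*. They overlap and hold the same site, which lies 151 to 138 bases before the other start site. Of the 10 genes, 7 had a promoter in the table, with 12 windows in all, and those of *Sall4*, *Sox3* and *Pou3f1* were not in it. The POU core TGCAAA was found in 15.5% of all windows and, besides *Nanog*, in that of *Sox2* at 98 to 93 bases before the start. The SOX core CATTGT was in 12.6% of all windows, and in those of *Lin28a* and *Pou5f1* besides *Nanog*; both cores are parts of the composite and so overlap it. The TEAD motif GGAATG was in 14.7% of all windows and in none of these 12. These matches describe letters in a window and do not show binding.

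Cells were placed by the summed level of short marker lists into 10 populations, and each is named by its gate. Barcodes with at least 5000 detected genes numbered 790 in the control and 860 in the cKO library after removal of doublets, with medians of 75696 and 80559 UMIs per cell. The Fgf8-low epiblast held 200 control and 120 cKO cells, the Fgf8-positive epiblast 93 and 170, cells with *T* or *Mixl1* of the primitive streak 49 and 63, and cells with *Mesp1* or *Mesp2* of nascent mesoderm 67 and 97. Later or other fates were cells with *Foxf1* or *Hand1* (66 and 47), node (16 and 14), blood (26 and 32), AVE (14 and 16), other visceral endoderm (73 and 200) and extraembryonic ectoderm (186 and 101). *Fgf8*, *T* and *Mixl1* themselves differed between the genotypes, and 108 control and 116 cKO cells lay within 2-fold of the *Fgf8* limit, so these numbers are not compared. Further markers, outside the gate's own list, were past 1.5-fold of the other cells for at least 3 genes in each gate that has such a list. In the cKO they were 3 of 4 in node, 4 of 5 in *T* or *Mixl1* and 4 of 5 in *Foxf1* or *Hand1* cells. Elsewhere all were. *Cer1*, 1 of the node markers, also served the AVE gate. *Yap1* was at 29.0 CPM (UMIs per 1000000 UMIs of the population) in control and 0.993 CPM in cKO Fgf8-low epiblast, a ratio of 0.0343. In the extraembryonic ectoderm the *Yap1* ratio was 0.735 and in the visceral endoderm 0.869 (0.732 to 1.04). Throughout, a ratio is cKO over control of UMIs summed over a population and divided by its total, and the range after it is an exact 95% interval that covers counting error only.

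*Pou5f1*, *Nanog* and *Foxd3* were found in the epiblast and streak gates and stood near 0 in extraembryonic cells. *Pou5f1* (chr17:35506018-35510772), the POU factor required throughout pluripotency, had 90.8 CPM in control and 83.5 in cKO Fgf8-low epiblast, 79.5 and 82.8 in Fgf8-positive epiblast, and 87.0 and 72.7 in *T* or *Mixl1* cells. Its level was 50.5 and 61.0 CPM in *Mesp1* or *Mesp2* cells and 27.7 and 18.5 in *Foxf1* or *Hand1* cells. *Pou5f1* therefore stayed within a narrow range from epiblast to streak and was lower only from mesoderm on. In the control its order was Fgf8-low epiblast, *T* or *Mixl1* cells, Fgf8-positive epiblast, node and *Mesp1* or *Mesp2* cells, with overlapping intervals between each neighbouring pair, and then *Foxf1* or *Hand1* cells below them. No UMI of *Pou5f1* was counted in AVE cells of either library, and its level was 0.115 and 0.866 CPM in the extraembryonic ectoderm.

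*Nanog* followed the opposite course to most of the other genes. It had 19.6 CPM in control and 24.8 in cKO Fgf8-low epiblast, 66.7 and 61.6 in Fgf8-positive epiblast, and 80.6 and 87.6 in *T* or *Mixl1* cells. In both libraries the streak gate was at the top and the Fgf8-low epiblast below the nascent mesoderm. Levels were 35.8 and 41.7 CPM in *Mesp1* or *Mesp2* cells, 61.2 and 53.3 in node cells and 19.0 and 8.83 in *Foxf1* or *Hand1* cells. In control cells the 3 highest populations, *T* or *Mixl1*, Fgf8-positive epiblast and node, had overlapping intervals, whereas in cKO cells the first stood apart from the next. Genes of germ cell precursors (*Prdm1*, *Dppa3*, *Tfap2c*, *Nanos3*, *Prdm14*), cells that also hold *Nanog*, summed to 24.9 CPM in control and 39.4 in cKO *T* or *Mixl1* cells, with *Nanos3* at 2.41 and 0.673 CPM and *Dppa3* at 2.14 and 2.35. Their part in the *Nanog* level was not tested.

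*Foxd3* (chr4:99656299-99658622), a forkhead factor of the epiblast and later of the neural crest, was highest in the Fgf8-low epiblast at 64.8 CPM in control and 51.9 in cKO, apart from cKO node cells at 56.7. It was at 40.0 and 34.8 CPM in Fgf8-positive epiblast and 13.1 in *T* or *Mixl1* cells of both libraries. In *Mesp1* or *Mesp2* cells it was at 0.766 and 2.39 CPM, and no UMI was counted in AVE or extraembryonic ectoderm, nor in control cells of the blood and *Foxf1* or *Hand1* gates.

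*Sox2*, *Sox3*, *Utf1* and *Pou3f1* were shared by epiblast and extraembryonic ectoderm and were low in mesoderm. *Sox2* (chr3:34650405-34652461), the SOX partner of POU5F1, had 119 CPM in control and 118 in cKO Fgf8-low epiblast and 119 and 116 in extraembryonic ectoderm, and neither pair of neighbours differed beyond its intervals. It lies within the longer noncoding gene *Sox2ot* on the same strand, so a part of its UMIs could be placed with either gene. *Sox3* (chrX:60891366-60893430), a close relative of *Sox2* on the X chromosome, was at 43.7 and 37.2 CPM in the Fgf8-low epiblast and higher, 60.4 and 49.5, in extraembryonic ectoderm. *Utf1* (chr7:139943789-139945112), a chromatin-bound coactivator of embryonic stem cells, had 636 and 634 CPM in the Fgf8-low epiblast and 486 and 489 in extraembryonic ectoderm. *Pou3f1* (chr4:124656807-124660655), the POU factor that promotes neural fate, had 401 and 379 CPM in the Fgf8-low epiblast and 475 and 408 in extraembryonic ectoderm. From the Fgf8-low to the Fgf8-positive epiblast all 4 were lower in both libraries, and in *Foxf1* or *Hand1* cells none was above 6.0 CPM.

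*Otx2* (chr14:48657677-48673819), the homeodomain factor of the AVE and the anterior epiblast, was highest in control AVE at 281 CPM and stood at 134 CPM in cKO AVE. It had 179 and 163 CPM in the Fgf8-low epiblast, 144 and 116 in the Fgf8-positive epiblast, 163 and 93.8 in *T* or *Mixl1* cells and 71.6 and 73.5 in *Mesp1* or *Mesp2* cells. *Sall4* (chr2:168748332-168767943) encodes a zinc-finger regulator of *Pou5f1*. *Lin28a* (chr4:134003330-134018841) encodes an RNA-binding protein that blocks maturation of let-7 microRNAs. Only these members had no level below 60.8 CPM in any of the 10 populations. *Sall4* ranged from 113 CPM in extraembryonic ectoderm to 521 in AVE of the control, and from 108 to 398 in the same populations of the cKO. *Lin28a* ranged from 87.9 CPM in blood to 180 in AVE of the control and from 60.8 to 190 in those of the cKO.

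**Figure D1:**
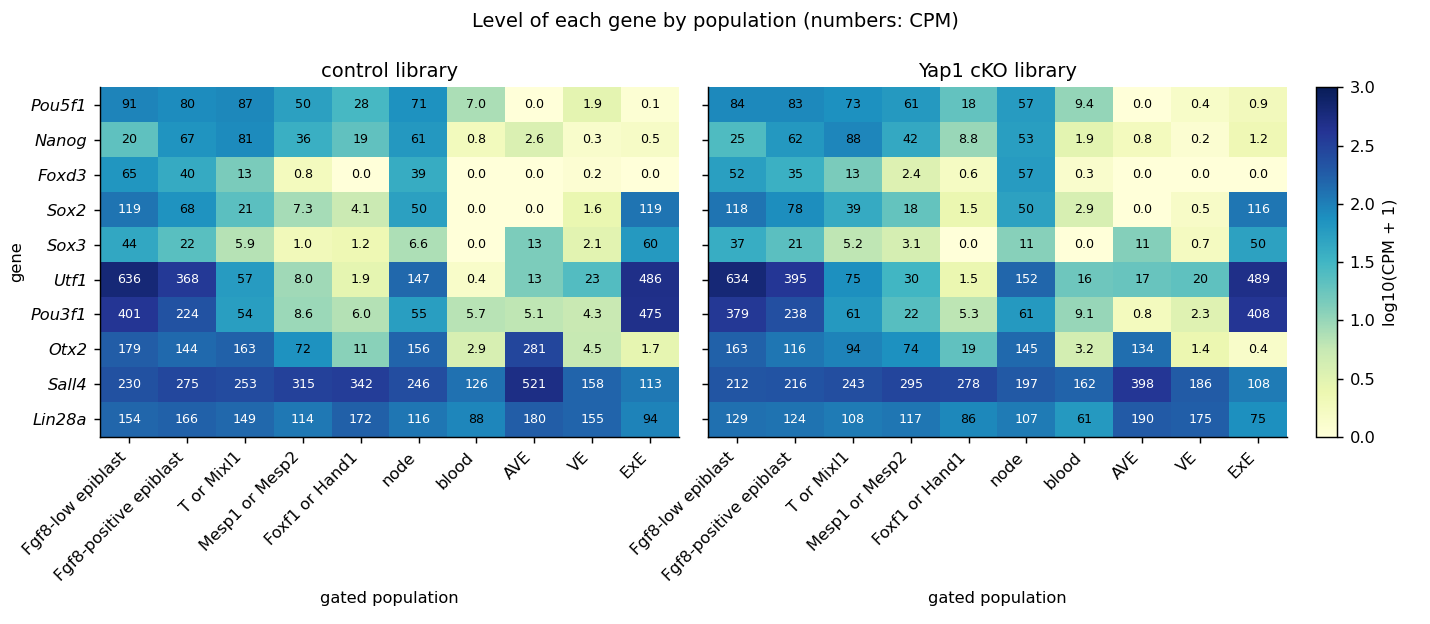
Level of each of the 10 genes (rows; printed in CPM and coloured by log10 of CPM + 1) in the gated populations (columns), with the control library on the left and the *Yap1* cKO library on the right. *Nanog* peaks in *T* or *Mixl1* cells at 80.6 and 87.6 CPM, while *Sox2* is at 119 and 118 CPM in Fgf8-low epiblast and near 119 again in extraembryonic ectoderm.

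From the Fgf8-low epiblast to *T* or *Mixl1* cells the members moved in different directions, and mostly the same way in both libraries. *Nanog* was 4.11-fold higher in control (3.49 to 4.82) and 3.53-fold higher in cKO streak cells (3.04 to 4.10). *Sox2* was at 0.175 of its epiblast level in control (0.138 to 0.220) and at 0.333 in cKO (0.288 to 0.382). *Sox3* was at 0.135 and 0.140 of its epiblast level, *Utf1* at 0.0893 and 0.118, *Pou3f1* at 0.133 and 0.160, and *Foxd3* at 0.202 and 0.253. These neural and formative factors were thus several-fold lower in the streak gate, with *Utf1* lowest relative to its epiblast level. *Pou5f1* kept 0.958 and 0.870 of its level, *Sall4* 1.10 and 1.15, and *Lin28a* 0.966 and 0.838. *Otx2* was at 0.908 in the control (0.831 to 0.991) and 0.578 in the cKO (0.524 to 0.635).

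A gene counted as different if its ratio was at most 0.8 or at least the inverse of 0.8, and if it had at least 100 UMIs over both groups. On the step from the Fgf8-low epiblast to *T* or *Mixl1* cells 1 of the 10 members, *Nanog*, was higher in the control, where 15.5% of all genes were, and 5 were lower, where 17.3% were. In the cKO library *Nanog* was again higher, with 12.8% of all genes, and 6 members were lower, with 13.9%: the same 5 and *Otx2*. These values depend on cells with *Lhx1*, *Cer1* or *Foxa2*. Without cells above 50 CPM of *Lhx1*, *Cer1* and *Foxa2* together, a choice made after the data were seen, *Otx2* was at 0.366 in control and 0.332 in cKO, *Foxd3* at 0.295 and 0.0550, and *Pou5f1* at 1.26 and 1.01. Then 8 control and 7 cKO members passed the limits, in place of 6 and 7. The share of all genes past the limits was not computed without these cells.

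In the Fgf8-low epiblast the cKO and control levels of most members lay close together. Past the same limits, 1 of the 10 was higher, *Nanog*, beside 4.38% of all genes, and 0 were lower, beside 7.60%. No test with replicates stands behind these counts. *Nanog* had 19.6 CPM in control and 24.8 in cKO, a ratio of 1.26 (1.07 to 1.49). Within Y-positive cells the *Nanog* ratio was 1.37 (0.981 to 1.88) and within *Xist*-positive cells 1.19 (0.957 to 1.48). Both lie above 1, and both intervals include 1. *Fgf8* still differed inside this gate, at 12.7 and 12.6 CPM in Y-positive and *Xist*-positive control cells and 27.0 and 16.1 in those of the cKO. The part of *Fgf8* in the *Nanog* ratio was not tested. The call was lost with at least 6000 genes, with at least 2000 genes (1.23) and with all gate limits halved (1.12) or doubled (1.15). *Foxd3* was at 0.801 (0.722 to 0.887), just short of the lower limit of 0.8, *Lin28a* at 0.835 (0.782 to 0.892) and *Sox3* at 0.852 (0.753 to 0.963). Over all cells *Sox2* at 0.994 and *Utf1* at 0.996 were nearest to equal, and the median over all genes was 0.979. By class *Utf1* had 626 and 654 CPM in Y-positive and *Xist*-positive control cells, and 491 and 664 in those of the cKO. *Pou5f1* had 93.8 and 86.1 CPM in the control classes, and 74.1 and 86.3 in those of the cKO. Both were thus lower in cKO Y-positive cells, of which the gate held 16.

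In the Fgf8-positive epiblast 0 members were higher, beside 5.95% of all genes, and 2 were lower, beside 13.2%. *Lin28a* had 166 CPM in control and 124 in cKO, a ratio of 0.747 (0.696 to 0.803) that was 0.752 in Y-positive and 0.735 in *Xist*-positive cells. *Sall4* had 275 and 216 CPM, a ratio of 0.786 (0.744 to 0.830), but 0.923 in Y-positive and 0.721 in *Xist*-positive cells. Relative to the median gene *Sall4* was at 0.820, and without cells above 50 CPM of *Lhx1*, *Cer1* and *Foxa2* at 0.857, so that it no longer passed the limit. That last step brought *Foxd3*, at 0.869 with all cells, to 0.743 and so past it. The lower *Lin28a* level was thus as large in both classes, and that of *Sall4* was mainly in 1 of them. *Nanog* was at 0.922 (0.828 to 1.03). It had 56.4 and 71.8 CPM in Y-positive and *Xist*-positive control cells, and 64.7 and 60.8 in those of the cKO.

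*Foxd3*, *Pou3f1*, *Utf1* and *Sox2* in this gate differed as much between the classes of cells of 1 genotype as between genotypes, and *Otx2* did not. *Foxd3* had 55.0 CPM in Y-positive and 25.1 in *Xist*-positive control cells, and 24.5 and 39.5 in the cKO. *Pou3f1* had 277, 188, 195 and 259 CPM in the same order, *Utf1* 440, 316, 342 and 417, and *Sox2* 79.7, 64.3, 64.3 and 85.5. Each of these genes was therefore higher in Y-positive cells of the control and in *Xist*-positive cells of the cKO. *Lhx1*, a gene of the anterior streak and of nascent mesoderm, was at 0.705 CPM in Y-positive and 154 in *Xist*-positive control cells of the gate. In the cKO it was at 17.6 and 8.85. Its part in the order of the other genes was not tested. *Otx2* had 151 and 138 CPM in the control classes and 114 and 119 in those of the cKO. Both control classes thus lay above both cKO classes, at a ratio of 0.807 (0.749 to 0.870) just short of the limit. These 4 classes held 38, 49, 44 and 119 cells. Without cells above 50 CPM of *Lhx1*, *Cer1* and *Foxa2* the *Otx2* ratio was 0.913, outside that interval.

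**Figure D2:**
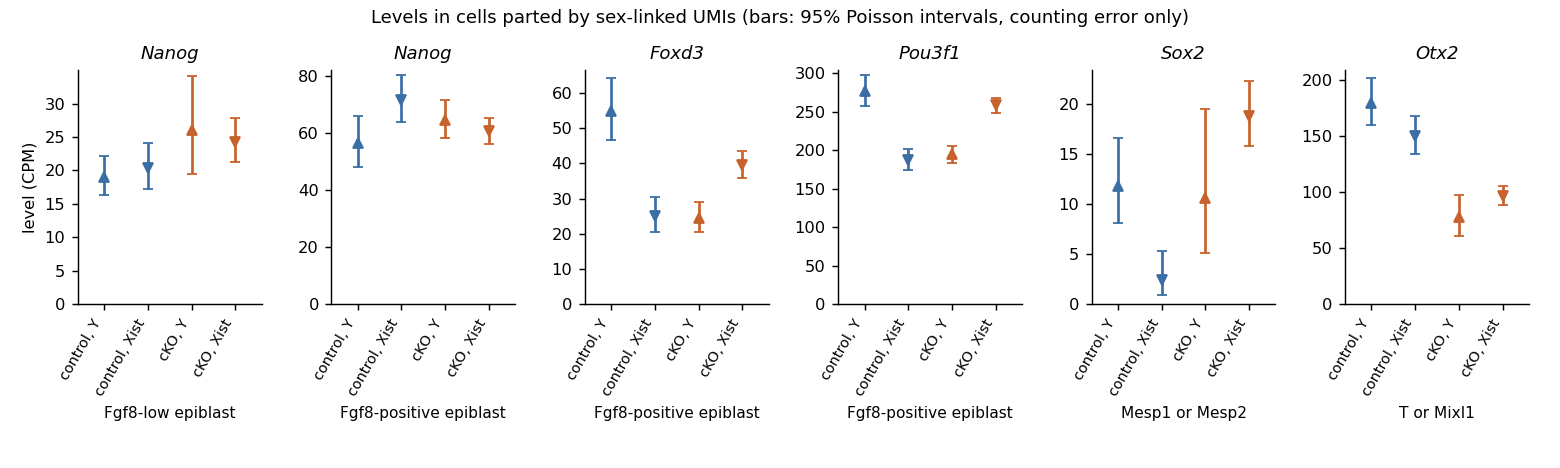
Level (CPM) of *Nanog*, *Foxd3*, *Pou3f1*, *Sox2* and *Otx2* in Y-positive (upward triangles) and *Xist*-positive cells (downward triangles) of the control (blue) and cKO (orange) library, in the population named under each panel, with exact 95% Poisson intervals. In the Fgf8-positive epiblast *Foxd3* runs from 24.5 to 55.0 CPM over the 4 classes, and the classes of 1 genotype differ as much as the genotypes do.

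Pooling both epiblast gates gave another picture for *Nanog*. Its level was 34.4 CPM in control and 47.2 in cKO epiblast, a ratio of 1.37 (1.26 to 1.5), with 1.94 in Y-positive and 1.12 in *Xist*-positive cells. The Fgf8-positive gate gave 31.3% of the epiblast UMIs in the control and 61.0% in the cKO library. Control levels weighted by the cKO shares gave 48.4 CPM, 1.41 times the control value, which left a ratio of 0.976. For *Nanog* the control levels at the *Fgf8* makeup of the cKO thus gave nearly the pooled cKO level. The shares rest on *Fgf8*, which itself differs between the genotypes, and on a limit near which many cells lie, so the weighting is a description of these gates.

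The same weighting left *Sox2* at 1.06, *Utf1* at 1.03, *Pou3f1* at 1.0 and *Pou5f1* at 0.990. *Sox3* was left at 0.909, *Otx2* at 0.851, *Foxd3* at 0.834, *Sall4* at 0.832 and *Lin28a* at 0.780. *Lin28a* and *Sall4*, which hardly follow the *Fgf8* gates, thus went from 0.797 and 0.878 before the weighting to values as low or lower, and *Pou3f1* from 0.847 to 1.0.

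*Sox2* and *Utf1* were higher in cKO cells of the streak gate, and with *Pou3f1* in those of the nascent mesoderm gate, but not in every class of cells. In *T* or *Mixl1* cells 2 of the 9 members with enough UMIs were higher, beside 7.18% of all genes, and 2 were lower, beside 11.7%. *Sox2* had 20.9 CPM in control and 39.4 in cKO, a ratio of 1.88 (1.45 to 2.47). The ratio was 2.15 in *Xist*-positive cells (1.54 to 3.07) and 0.774 in Y-positive cells (0.401 to 1.43), of which the cKO gate held 6. Over the 4 classes *Sox2* had 22.0 and 20.2 CPM in Y-positive and *Xist*-positive control cells, and 17.0 and 43.5 in those of the cKO, so that 1 class stood above the other 3. *Utf1* had 56.8 and 74.8 CPM, a ratio of 1.32 (1.12 to 1.56) that was 1.44 in *Xist*-positive and 0.995 in Y-positive cells, and 1.10 with gate limits halved or with cells weighted equally.

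In *Mesp1* or *Mesp2* cells 3 of 8 members were higher, beside 7.83% of all genes, and 0 lower, beside 8.01%. *Utf1* had 8.04 CPM in control and 30.0 in cKO, a ratio of 3.73 (2.68 to 5.29), and 1 cKO cell gave 21.7% of its UMIs. Without the cell with the most UMIs in each library the *Utf1* ratio was 3.40, and it was 2.42 in Y-positive and 3.35 in *Xist*-positive cells. *Pou3f1* had 8.61 and 22.1 CPM, a ratio of 2.57 (1.85 to 3.63) that was 1.44 and 1.74 within these classes. Both class ratios lie below the pooled one, as they do for *Utf1*, and 1.44 rests on 10 control and 5 cKO UMIs. Control cells had 3.68 CPM of *Pou3f1* if Y-positive and 14.2 if *Xist*-positive. *Xist*-positive cells were 46.3% of the control gate and 82.5% of the cKO gate. The part of this makeup in the pooled ratios was not tested. *Sox2* had 7.27 and 18.0 CPM, a ratio of 2.47 (1.73 to 3.63) that was 7.71 in *Xist*-positive cells (3.45 to 21.4) and 0.899 in Y-positive cells, of which the cKO gate held 10. Over its classes *Sox2* had 11.8 CPM in Y-positive and 2.44 in *Xist*-positive control cells, beside 10.6 and 18.8 in the cKO, so that the *Xist*-positive control cells were the low class. *Foxd3* and *Sox3* had too few UMIs for the rule, with ratios of 3.12 (1.05 to 12.5) and 3.21 (1.22 to 10.7). All of these levels remained far below those of the epiblast.

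These ratios depend on cells with *Lhx1*, *Cer1* or *Foxa2*. *Lhx1* is also a gene of nascent mesoderm, so in *Mesp1* or *Mesp2* cells leaving them out does not single out the anterior streak. *Lhx1* was there at 358 and 540 CPM in Y-positive and *Xist*-positive control cells, and at 356 and 297 in those of the cKO. *Cer1* was at 6.63 and 2.03 CPM in the control classes and at 0 and 28.7 in those of the cKO. When cells above 50 CPM of *Lhx1*, *Cer1* and *Foxa2* together were left out, a choice made after the data were seen, the *Sox2* ratio in *Mesp1* or *Mesp2* cells was 1.04, and that in *T* or *Mixl1* cells was 0.32 on the log2 scale. *Utf1* stood at 2.22 in *Mesp1* or *Mesp2* cells and at 0.805, below 1, in *T* or *Mixl1* cells. *Pou3f1* in *Mesp1* or *Mesp2* cells was at 0.58 on the log2 scale. The farthest move was that of *Foxd3* in *T* or *Mixl1* cells, from 13.1 CPM in both libraries to a ratio of 0.149. That ratio has no interval and rests on few UMIs. With all cells *Foxd3* had 26 and 22 UMIs in Y-positive and *Xist*-positive control cells, and 3 and 75 in those of the cKO. Of 40 genotype ratios 16 moved beyond their interval, and 1 more, which was past the fold limit with all cells, changed direction. Some of the 16 also crossed 1. *Pou5f1* in *Mesp1* or *Mesp2* cells went from 1.21 to 0.951, and *Nanog* in *T* or *Mixl1* cells from above 1 to 0.917. The step left out 22 of 49 control and 31 of 63 cKO *T* or *Mixl1* cells, and 56 of 67 and 71 of 97 *Mesp1* or *Mesp2* cells.

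*Otx2* and *Lin28a* were the 2 members below 0.8 in *T* or *Mixl1* cells. *Otx2* had 163 CPM in control and 93.8 in cKO, a ratio of 0.577 (0.513 to 0.648) that was 0.431 in Y-positive and 0.646 in *Xist*-positive cells. Over the classes *Otx2* had 180 and 150 CPM in control and 77.8 and 96.9 in cKO, so that both control classes were above both cKO classes. *Lhx1* moved with it, at 483 CPM in control and 116 in cKO streak cells, whereas *Cer1* was at 116 and 138, *Foxa2* at 64.5 and 53.3 and *Eomes* at 324 and 263. Without cells above 50 CPM of *Lhx1*, *Cer1* and *Foxa2* the *Otx2* ratio was 0.818 and no longer past the limit. The part of these cells in the ratio was not tested further. In AVE cells *Otx2* was at 0.477 (0.387 to 0.586) in 14 control and 16 cKO cells, with 0.529 in Y-positive and 0.507 in *Xist*-positive cells, and *Yap1* was itself at 0.345 in that gate.

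*Lin28a* had 149 CPM in control and 108 in cKO *T* or *Mixl1* cells, a ratio of 0.724 (0.645 to 0.813), with 0.543 in Y-positive and 0.799 in *Xist*-positive cells. Without cells above 50 CPM of *Lhx1*, *Cer1* and *Foxa2* it was 0.699. In *Foxf1* or *Hand1* cells *Lin28a* had 172 and 85.9 CPM, a ratio of 0.499 (0.435 to 0.570), with 0.508 in Y-positive and 0.451 in *Xist*-positive cells. In *Mesp1* or *Mesp2* cells it was at 1.02, in extraembryonic ectoderm at 0.798 (0.736 to 0.865) and in visceral endoderm at 1.13 (1.05 to 1.22). The lower *Lin28a* level was thus seen in several gates of the epiblast lineage and in extraembryonic ectoderm, but neither in nascent mesoderm nor in visceral endoderm. *Nanog* in *Foxf1* or *Hand1* cells had 19.0 and 8.83 CPM, a ratio of 0.464 (0.296 to 0.707), and was at 1.09 in *T* or *Mixl1* cells (0.942 to 1.26).

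**Figure D3:**
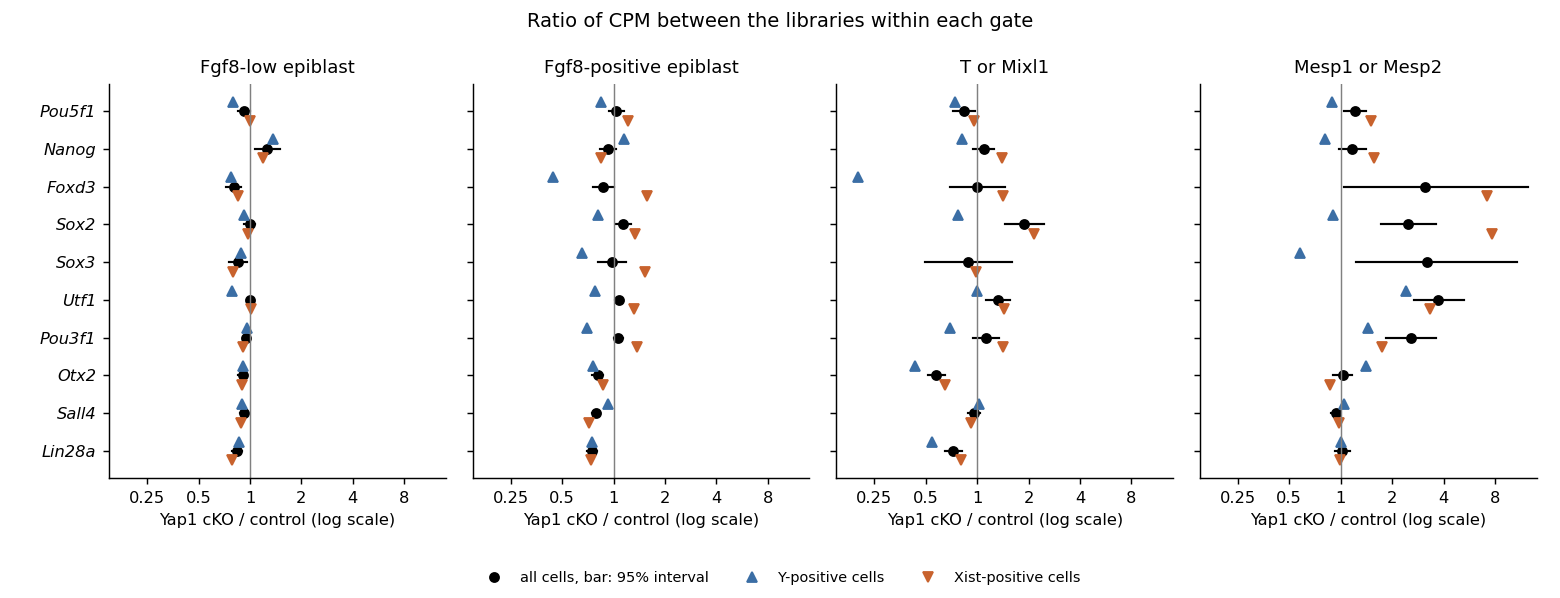
Ratio of *Yap1* cKO to control (log axis) for each member in 4 populations, over all cells (circles, with exact 95% intervals for counting error) and within Y-positive and *Xist*-positive cells (triangles). *Otx2* in *T* or *Mixl1* cells (0.577) and *Lin28a* in Fgf8-positive epiblast (0.747) stay below 1 in both classes, whereas *Sox2* in *T* or *Mixl1* cells (1.88) is 0.774 in one and 2.15 in the other.

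*Nanog* and *Sox2* were next followed within single cells. To make depths equal, each cell was thinned to 38000 UMIs, and 26 control and 48 cKO cells with fewer were left out. In the Fgf8-low epiblast 43.8% of 194 control cells (36.7 to 51.1) and 57.4% of 115 cKO cells (47.8 to 66.6) had UMIs of both genes. Another 50.5% and 37.4% had *Sox2* without *Nanog*, and 1.55% and 3.48% had *Nanog* without *Sox2*. Nearly all cells of this gate therefore had *Sox2*, and the classes differed in *Nanog*. In the Fgf8-positive epiblast both genes were found in 62.6% of 91 control and 67.5% of 163 cKO cells, with 15.4% and 12.3% for *Nanog* alone. Without thinning, the shares of Fgf8-low cells with both were 67.5% and 76.7%.

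In *T* or *Mixl1* cells *Nanog* UMIs without a *Sox2* UMI were common at this depth. Both genes were found in 43.5% of 46 control cells (28.9 to 58.9) and 60.3% of 63 cKO cells (47.2 to 72.4). *Nanog* alone was found in 41.3% and 30.2%, and *Sox2* alone in 2.17% and 3.17%. Without thinning, *Nanog* alone was found in 32.7% of control and 19.0% of cKO cells. At the low *Sox2* level of this gate a cell can lack a UMI by sampling, so these shares do not define a state. Of the *Sox2*-bearing cells of the gate 20 of 21 in control and 38 of 40 in cKO also had *Nanog*. *Nanog* was also found in 76.0% and 82.6% of the cells without *Sox2*. Were the genes independent, 17.8 and 36.2 cells would have both, beside the 20 and 38 counted. The count cannot pass the 21 and 40 *Sox2*-bearing cells, and most cells had *Nanog*. These numbers thus cannot tell independence from association. With another random draw in the thinning the share with both was 32.6% in control and 55.6% in cKO. In *Mesp1* or *Mesp2* cells both were found in 10.4% and 19%. The background for *Nanog* was the extraembryonic ectoderm, where 2.23% of control and 3.12% of cKO cells had a UMI of it after thinning. Without thinning the shares were 3.23% and 9.90%, at median depths of 83342 and 106990 UMIs per cell, beside 74470 and 76651 in *T* or *Mixl1* cells. All *Nanog* shares of the epiblast and streak gates lay far above it, and 88.8% and 88.5% of extraembryonic ectoderm cells had *Sox2* alone.

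**Figure D4:**
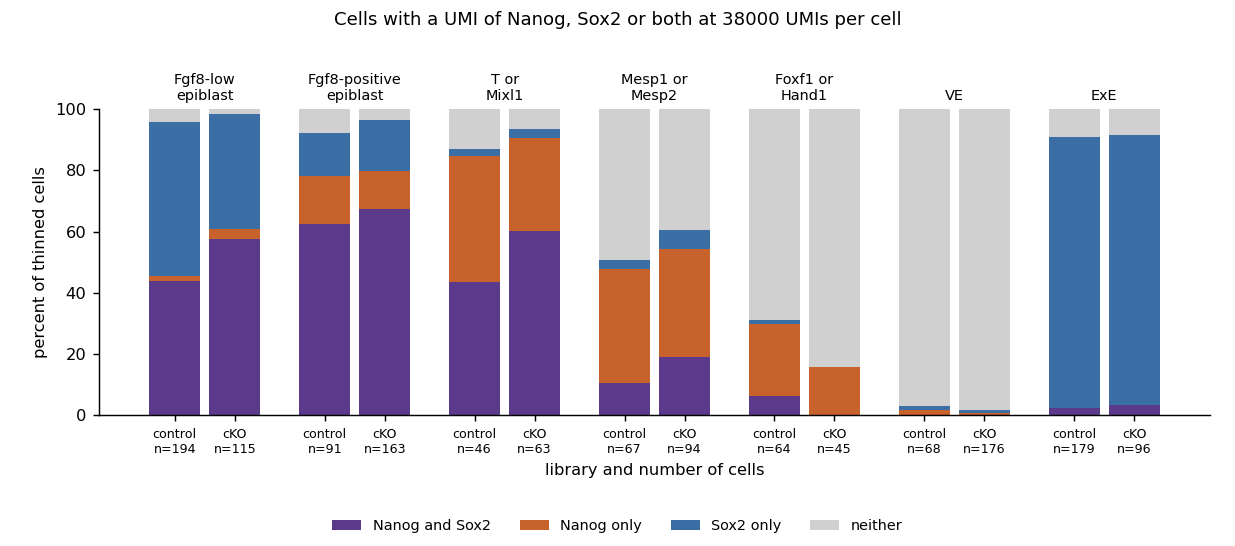
Stacked percent of cells with UMIs of *Nanog* and *Sox2*, *Nanog* alone, *Sox2* alone or neither, per population and library with the number of cells, after thinning each cell to 38000 UMIs. *Sox2* alone goes from 50.5% of control Fgf8-low cells to 2.17% of control *T* or *Mixl1* cells, while *Nanog* alone goes from 1.55% to 41.3%.

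The level of *Sox2* went with the *Nanog* count of a cell in opposite ways in the pooled epiblast and in the streak gate, while *Otx2* was lower with more *Nanog* in both. In the pooled epiblast, control cells with 0, 1 to 2 and at least 3 *Nanog* UMIs had 110, 108 and 69.0 CPM of *Sox2*, and cKO cells 108, 93.8 and 77.2. *Utf1* went from 602 to 409 CPM in control and from 610 to 326 in cKO between the first and the last class, and *Otx2* from 187 to 112 and from 157 to 99.0. *Pou5f1* stayed at 90.4, 87.7 and 103 CPM in control. In the pooled epiblast, cells rich in *Nanog* were thus poorer in *Sox2*, *Utf1* and *Otx2* in both libraries. These classes draw unequally on the Fgf8-low and Fgf8-positive gates, which themselves differ in these genes. Within the gates Spearman's rho of *Nanog* with *Sox2* was 0.03 in Fgf8-low and -0.11 in Fgf8-positive control cells, and -0.22 and -0.03 in those of the cKO. *Nanog* with *Utf1* gave 0.02 and -0.15 in control and -0.22 and -0.38 in cKO, and *Nanog* with *Otx2* -0.10 and -0.36 in control and -0.18 and -0.19 in cKO. Within gates the *Sox2* pattern was thus near 0 in 2 of 4 groups of cells.

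In *T* or *Mixl1* cells *Sox2* went the other way, with 7.52, 8.10 and 36.4 CPM over the same classes in control and 13.2, 24.8 and 52.0 in cKO. *Pou5f1* went with it, from 45.1 to 117 CPM in control and from 26.3 to 82.2 in cKO, whereas *Otx2* went down from 226 to 108 and from 237 to 75.0. The classes held 7, 13 and 26 control and 6, 17 and 40 cKO cells. Streak-gate cells rich in *Nanog* were thus richer in *Sox2* and *Pou5f1* and poorer in *Otx2*. The gate is mixed, with 22 of 49 control and 31 of 63 cKO cells above 50 CPM of *Lhx1*, *Cer1* and *Foxa2* together. Without them the control step from the Fgf8-low epiblast was 5.73 for *Nanog*, 0.264 for *Sox2*, 1.26 for *Pou5f1* and 0.366 for *Otx2*. The part of these cells in the pattern was not tested. Over the 46 control and 63 cKO cells Spearman's rho of thinned counts was 0.42 and 0.25 for *Nanog* with *Sox2* and -0.39 and -0.34 for *Nanog* with *Otx2*. In the epiblast, with 285 and 278 cells, it was -0.17 and -0.20 for *Nanog* with *Sox2*, and *Utf1* and *Pou3f1* were the closest pair quoted here at 0.53 and 0.65. All cells of a rho share 1 library, and these values are descriptions.

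**Figure D5:**
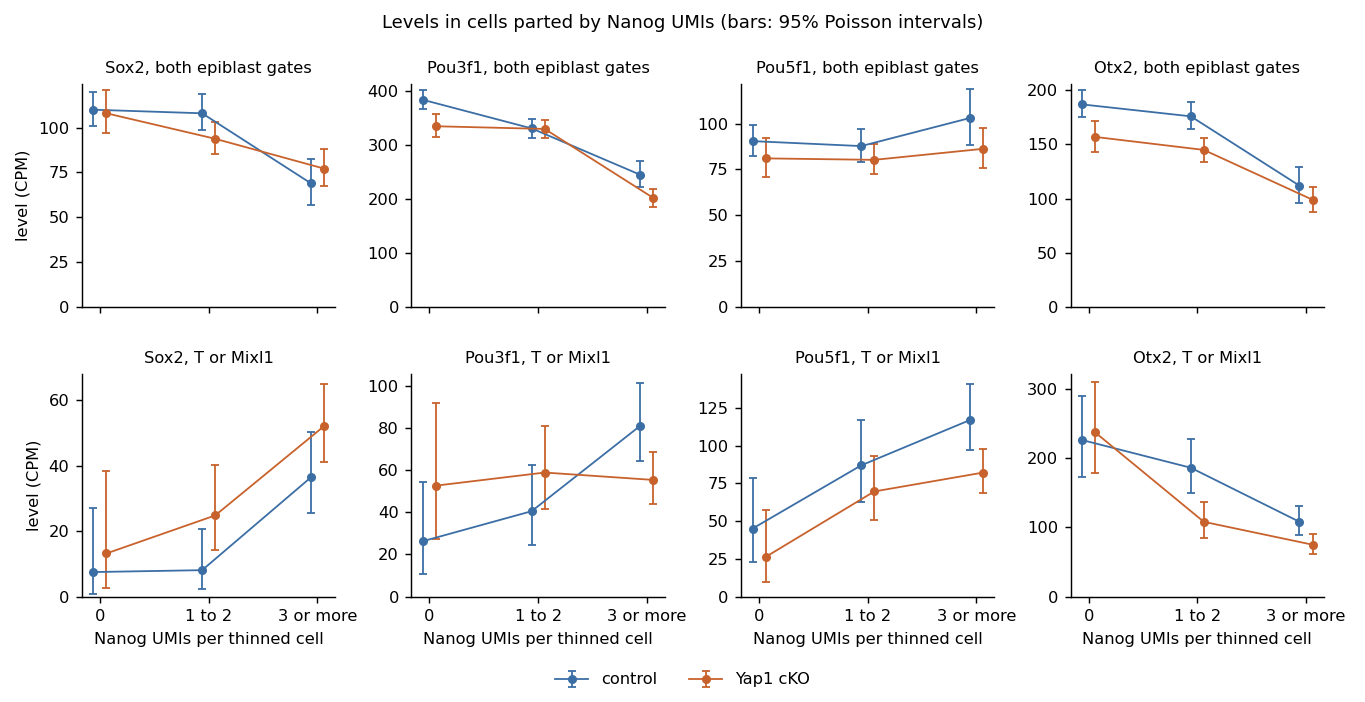
Level (CPM, exact 95% Poisson intervals) of *Sox2*, *Pou3f1*, *Pou5f1* and *Otx2* in cells grouped by *Nanog* UMIs after thinning, for the pooled epiblast and *T* or *Mixl1* cells of each library. *Sox2* goes from 110 to 69.0 CPM across the classes of control epiblast but from 7.52 to 36.4 in control *T* or *Mixl1* cells.

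Other genes of the pluripotent states were taken from lists. Of 12 genes of the naive state 1 had enough UMIs in the Fgf8-low epiblast, *Fgf4*, a growth factor of the early epiblast, and it was lower, with 5.39 CPM in control and 3.52 in cKO (0.654, 0.436 to 0.964). Of 17 formative or primed genes 15 were counted there, and 0 were higher and 0 lower, with a median log2 ratio of -0.11 beside -0.12 for the 10 members and -0.03 for all genes. Of 9 anterior and neural genes 1 was counted, and it was neither. In the Fgf8-positive epiblast 4 of 15 formative or primed genes were lower, beside 13.2% of all genes, and 0 higher, beside 5.95%. Among them were *Fgf5*, the classical marker of the primed epiblast, with 198 CPM in control and 142 in cKO (0.718), the NODAL co-receptor *Tdgf1* (0.718) and the ETS gene *Etv4* (0.773). The naive gene *Klf5* (0.658) and the anterior gene *Hesx1* (0.370) were lower as well, but in Y-positive cells *Klf5* was at 2.0 (0.728 to 6.82) and *Hesx1* at 5.50 (1.72 to 28.0), with 3 control UMIs of the latter, beside 0.450 and 0.159 in *Xist*-positive cells. These 5 genes were named after their values were seen. The median log2 ratio of the formative list there was -0.12, beside -0.07 for the members and -0.06 for all genes.

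Levels were compared over 20 points, the 10 populations of both libraries, by the Pearson correlation of log2(CPM + 1). For each member the nearest genes outside the 10 members were taken, among 12344 genes. For *Nanog* they included *Npas3* (0.96), for *Pou5f1* *Ldb2* (0.99) and *Cdh10* (0.98), and for *Otx2* *Ror2* (0.97) and *Igfbp2* (0.96). *Utf1* was nearest to *Zfp462* (0.95), *Sox2* to *1700023F06Rik* and *Capg* (0.94 each), *Sox3* to *Igsf8* (0.92), *Sall4* to *Eya2* (0.91) and *Lin28a* to *Fmn1* (0.91). *Sox2* and *Pou3f1* ran closer to each other, at 0.96, than to the genes named for them. For 2 members the nearest gene outside the 10 lay beside them on the opposite strand. *Foxd3* ran with the lincRNA *Gm12688* (0.99, chr4:99653607-99654983), and *Pou3f1* with the antisense gene *Gm2164* (0.94, chr4:124528924-124657169), which overlaps its start. Points of 1 library share its depth, and the correlations are descriptions.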

How the data were processed

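The deposited files hold, for 1 control and 1 *Yap1* cKO library, UMI counts per gene and barcode, which the authors made with Cell Ranger 7.1.0 on mm10 from 10x Chromium 3′ libraries. The counts were not normalized. The libraries held 1829 and 1897 barcodes with 70573418 and 87937858 UMIs, and 2 barcodes were shared, none of them among the cells used. Barcodes with at least 5000 genes and at most 10% mitochondrial UMIs were kept (791 and 864), less 1 and 4 that scrublet in scanpy 1.11.5 called doublets. Removal of free RNA and the tests between cells of the study's methods were not repeated, since cells of 1 library are not replicates.

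Cells were gated in turn on summed CPM of markers that include no member: extraembryonic ectoderm (a list with *Elf5*, *Rhox6*, *Rhox9*, *Wnt7b* and *Tex19.1*, 250 CPM), visceral endoderm (*Ttr*, *Apoa1*, *Apob*, *Rbp4*, *Amn*, *Cubn*, 2000) with AVE in it (*Cer1*, *Hhex*, *Lefty1*, *Dkk1*, 300), blood (*Tal1*, *Etv2*, *Runx1*, *Gata1*, 250), node (*Noto*, *Foxj1*, *Shh*, *Chrd*, 100), lateral and extraembryonic mesoderm (*Foxf1*, *Hand1*, *Tbx20*, 250), *Mesp1* or *Mesp2* (100), *T* or *Mixl1* (50), *Fgf8* (50) and the rest as Fgf8-low epiblast. The limits were set after the scores were seen. Y-positive cells had at least 2 UMIs of Y-linked genes and 0 of *Xist*, and *Xist*-positive cells the reverse. Levels are CPM with exact Poisson intervals, ratios have exact conditional binomial and shares Clopper-Pearson intervals, all at 95% and for counting error only. Shares of cells were taken after thinning to 38000 UMIs, the 5th percentile of depth. Statistics were computed in Python 3.11.15 with scipy 1.17.1 and tested on simulated data. Promoters came from RefSeq (GRCm38.p6) and positions from GENCODE M21 (GRCm38).

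Named were all members, *Yap1* and list genes with at least 100 UMIs past the fold limit (0.8 or its inverse) in the Fgf8-low epiblast. Of these list genes the 4 farthest from 1 per list and direction were taken. Also named were, per member, the 2 genes of nearest pattern, with the other members, mitochondrial, ribosomal protein, Y-linked genes, *Xist* and *Tsix* left out. A few genes that this rule or a list holds are not reported here. The members and lists were chosen with earlier results of these data known. Alternatives changed the filters, gate limits, scaling, weight of cells, sex-linked class, thinning and the fold or UMI minimum.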

Additional observations from a re-analysis of the deposited data

Results flagged for a closer look

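In the Fgf8-positive epiblast 6 members had ratios on opposite sides of 1 in the classes of cells by sex-linked UMIs. Only members whose intervals excluded 1 in both classes were counted, so each pair of intervals lay apart by this rule. The share of all genes that meet the rule was not computed. The count is therefore not read as a result about these genes. Ratios are given as Y-positive first and *Xist*-positive second. *Pou5f1* was at 0.840 and 1.22, *Sox2* at 0.807 and 1.33, *Sox3* at 0.655 and 1.53, *Utf1* at 0.777 and 1.32, *Pou3f1* at 0.701 and 1.37, and *Foxd3* at 0.445 and 1.57. In *T* or *Mixl1* cells *Pou3f1* was at 0.690 and 1.42. The differences between the classes were not tested, since a pool held only a few embryos and a class can stand for a single embryo.

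The ratio of 4 members also lay on opposite sides of 1 in different populations. Only intervals that excluded 1 were counted, within the epiblast, *T* or *Mixl1* and *Mesp1* or *Mesp2* gates. The share of all genes that meet this rule was not computed either, so the count is not read as a result about the members. *Pou5f1* was at 1.21 in *Mesp1* or *Mesp2* cells but at 0.919 in the Fgf8-low epiblast and 0.835 in *T* or *Mixl1* cells. In *Mesp1* or *Mesp2* cells *Sox3* was at 3.21 (1.22 to 10.7), *Pou3f1* at 2.57 (1.85 to 3.63) and *Foxd3* at 3.12 (1.05 to 12.5). In the Fgf8-low epiblast they were at 0.852, 0.945 and 0.801. In *Mesp1* or *Mesp2* cells *Sox3* and *Foxd3* had too few UMIs for the rule, with 5 and 4 in the control. *Sox3* was there at 0.977 with gate limits halved and at 0.575 in Y-positive cells. Without cells above 50 CPM of *Lhx1*, *Cer1* and *Foxa2*, *Foxd3* was at 1.16 and *Pou5f1* at 0.951, while *Sox3* stayed above 1. *Pou3f1* stayed above 1 in each of these settings. The differences between populations were not tested either.

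Barcodes with at least 2000 but under 5000 genes entered only the alternative with at least 2000 genes. They numbered 183 in the control and 219 in the cKO library among those with an embryonic gate. Over all embryonic gates together *Sall4* was in them at 170 CPM in control and 200 in cKO, a ratio of 1.18 (1.03 to 1.34). In the Fgf8-positive epiblast of the main cells its ratio was 0.786. *Sall4* differs between gates, at 0.549 of its Fgf8-low level in control blood and 1.49 in control *Foxf1* or *Hand1* cells. A pool of gates and a single gate are unlike sets, so their directions cannot be set against each other. *Lin28a* was at 0.996 (0.85 to 1.17) in these barcodes, *Utf1* at 0.672 (0.597 to 0.755) and *Pou3f1* at 0.679 (0.571 to 0.807).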

How the results depend on the processing

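No paired analysis was possible because there is 1 library per genotype. Depth limits the 0 and near-0 levels, and intervals hold no spread between embryos. Of the 40 genotype ratios of members, all 40 stayed within their interval with at least 2000 or 6000 genes, with doublets kept, with median scaling, and without cells over 200 CPM of visceral endoderm genes. With gate limits halved 31 did, with them doubled 34, in *Xist*-positive cells 23 of 39 and in Y-positive cells 13 of 38. Direction turned for called ratios in Y-positive cells (*Sox2* 0.774 and *Utf1* 0.995 in *T* or *Mixl1* cells, *Sox2* 0.899 in *Mesp1* or *Mesp2* cells) and for *Utf1* in *T* or *Mixl1* cells, at 0.805, without cells over 50 CPM of *Lhx1*, *Cer1* and *Foxa2*. That alternative and leaving out the cell with most UMIs of a gene were chosen after seeing the data. The former moved 16 of the 40 ratios beyond their interval. Members past the fold limit in the Fgf8-low epiblast (1) numbered 0 with at least 6000 genes, 4 in Y-positive and 2 in *Xist*-positive cells. They numbered 2 without cells over 50 CPM of *Lhx1*, *Cer1* and *Foxa2*, 2 without the top cell, 5 over both epiblast gates and 4 over all embryonic cells. In the Fgf8-positive epiblast (2) they numbered 1 with median scaling, 6 in Y-positive and 7 in *Xist*-positive cells, and in *Mesp1* or *Mesp2* cells (3) 1 and 5. The pooled *Nanog* ratio (1.37) was 1.94 and 1.12 in these classes. The share of *T* or *Mixl1* cells with *Nanog* and *Sox2* (43.5% and 60.3%) was 23.9% and 33.3% at 2 or more UMIs of each, and in the cKO 76.2% without thinning and 33.3% in Y-positive cells. List genes past the fold in the Fgf8-low epiblast (1) numbered 11 at 20 or more UMIs, 15 with 1 UMI in each library and 6 over both gates. In the Fgf8-positive epiblast (6) they numbered 11 and 17, or 3 past 1.5-fold. The share of all genes past the limit was not computed under these alternatives. The counts of members and list genes under them are therefore not read as results about these genes. The causes were not tested. Levels under median scaling were computed for the cKO library only.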
